A study of Mus musculus with 12 samples.

Results

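The miR-15/16 family in these data is the set of 6 miRNA names miR-15a, miR-15b, miR-16, miR-195a, miR-497 and miR-322, produced from 7 annotated hairpins because miR-16 has a pair of loci. Its members were chosen by name, and a tag (a distinct insert sequence with its read count) was assigned to a member when the whole tag matched the hairpin without a mismatch. Of 1087 annotated mouse miRNA names, 705 had a count, and the 6 members held 65541 of 30022027 miRNA counts (0.218%). The libraries were made from size-fractionated hippocampal RNA of individual male C57BL/6NCrl mice, 6 to 8 weeks old. NT mice were untreated, and the others received electroconvulsive shock (ECS), a current that triggers a seizure, and were killed 0.5, 1, 3, 6 or 24 h later. Each of the 6 groups had 2 libraries from different mice, one in the first time course (suffix -1, 6 libraries) and one in the second (suffix -2, 6 libraries). Levels are given as percent of all miRNA counts of a library, and each library held between 439336 and 4282006 such counts.

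A miRNA guides the silencing complex to messenger RNAs mainly through its seed, the bases near its 5′ end, so that miRNAs with 1 seed share most of their predicted targets. The miR-15/16 family is best known for restraining cell division and survival, through targets such as cyclins and Bcl2, and the loss of miR-15a and miR-16 is a classic lesion of chronic lymphocytic leukaemia. Each hairpin can yield a product from its 5′ arm (5p) and from its 3′ arm (3p), of which usually one is stable.

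All 6 of the 5p products carry the same seed, bases 2 to 8, set in capitals in the mature sequences from RefSeq (GRCm38.p6), and differ mainly downstream of it. They are shown because the family is defined by this seed, and because 15a and 15b, and 16 and 195a, are close pairs that only a few bases keep apart.
miR-15a-5p: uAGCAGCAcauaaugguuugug
miR-15b-5p: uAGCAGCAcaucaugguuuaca
miR-16-5p: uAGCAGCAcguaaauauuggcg
miR-195a-5p: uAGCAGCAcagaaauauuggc
miR-497-5p: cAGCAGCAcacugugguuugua
miR-322-5p: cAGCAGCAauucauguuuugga
The most abundant deposited tag of each 5p arm had this seed too. No other annotated arm had a most abundant tag with it. The 3p arm of miR-322, which holds most of the family's counts, has an unrelated seed.
miR-322-3p: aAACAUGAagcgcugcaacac
No family tag matched a miRNA name outside its own, so none of the member counts was shared with another miRNA.

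The hairpins lie at 4 places in the genome (GRCm38, GENCODE). Mir15a (chr14:61632027-61632110, minus strand) and Mir16-1 (chr14:61631880-61631972, minus strand) lie in intron 4 of Dleu2, a long noncoding RNA, in 7 of its 8 transcripts that contain them, and in intron 3 of the other. Mir15b (chr3:69009772-69009835, plus strand) and Mir16-2 (chr3:69009902-69009996, plus strand) lie in an intron of Smc4, which encodes a condensin subunit, intron 5 in 4 of 5 transcripts and intron 3 in the other. Mir497 (chr11:70234717-70234800, plus strand) and Mir195a (chr11:70235042-70235135, plus strand) form a pair outside any annotated host transcript. Mir322 (chrX:53054255-53054349, minus strand), the mouse counterpart of human miR-424, is also outside a host and stands next to Mir503, Mir351, Mir542 and the Mir450 hairpins. The 5p product of miR-16 is the same from both loci, and 9953 of its 9978 counts were in tags that both loci could give. Its 3p products differ, and there 755 counts came from Mir16-1 and 5 from Mir16-2, so the star strand of the Smc4 locus was barely seen.

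By counts, miR-322-3p made up 57.4% of the family (37620 counts). The 5p arms with the seed together held 26713 counts, or 40.8%. Among them miR-16-5p led with 9978 counts, ahead of miR-497-5p (6804), miR-15a-5p (4330), miR-15b-5p (2966), miR-195a-5p (1830) and miR-322-5p (805). The minor arms had 760 counts for miR-16-3p, 268 for miR-15a-3p, 131 for miR-497-3p, 48 for miR-15b-3p and 1 for miR-195a-3p. Of the 12 arms with a count, 11 had at least 10 counts in at least 2 libraries and entered the tests, and miR-195a-3p did not.

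**Figure D1:**
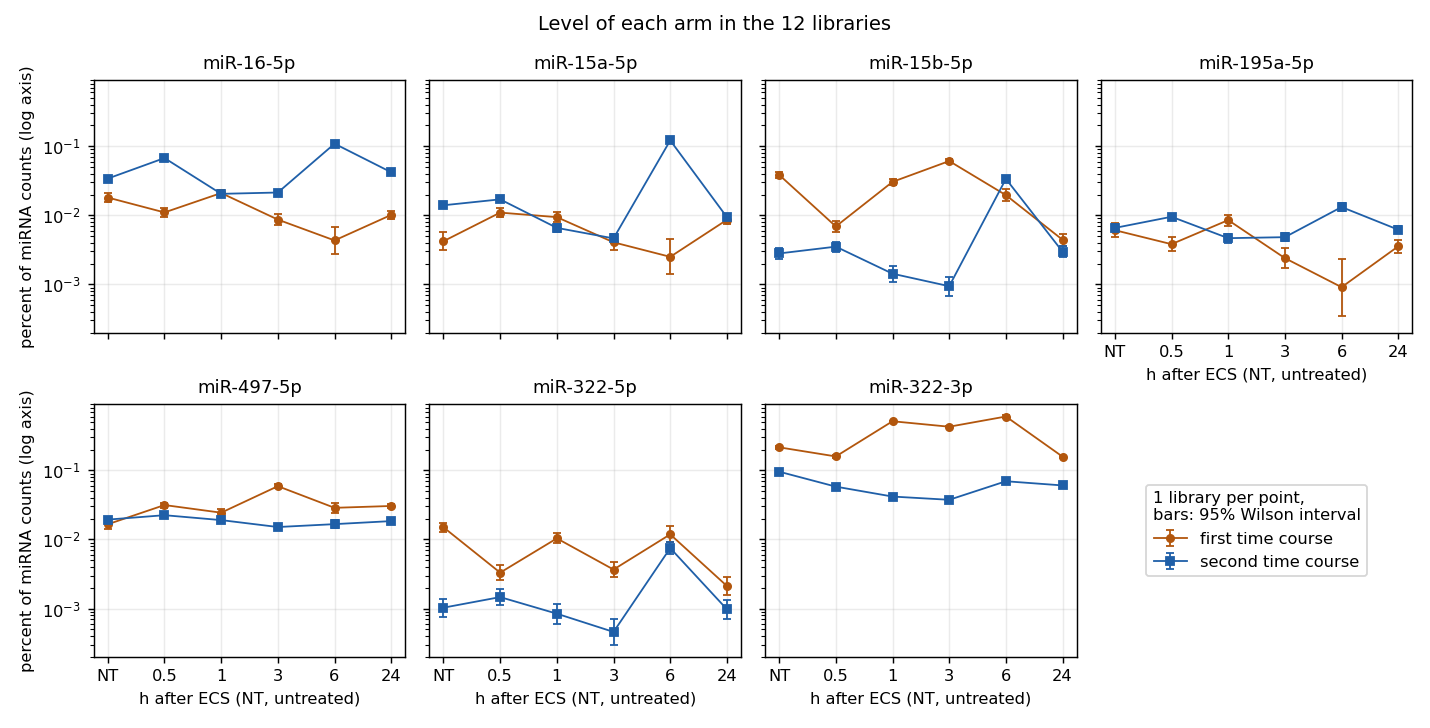
Percent of miRNA counts (log axis) of the 6 seed-bearing 5p arms and miR-322-3p in each of the 12 libraries, by hours after ECS, with Wilson 95% intervals that cover counting error only. The second time course lies below the first for miR-322-3p at every time point, and at or above it for miR-16-5p except at 1 h, where the values are 0.0204% and 0.0210%.

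In the untreated hippocampus, miR-322-3p was the most abundant arm of the family in both libraries, and it was higher in NT-1, with 0.216% (Wilson 95% interval 0.207% to 0.225%), than in NT-2, with 0.0957% (interval 0.0928% to 0.0987%). The rest of the order differed between these mice. In NT-1, miR-15b-5p (0.0385%) stood above miR-16-5p (0.0181%), miR-497-5p (0.0166%) and miR-322-5p (0.0150%). In NT-2, miR-16-5p (0.0340%) stood above miR-497-5p (0.0194%) and miR-15a-5p (0.0140%), and miR-15b-5p was at 0.0028%. The 95% intervals count reads and do not cover differences between mice or library preparations, and reads amplified by PCR are not independent molecules.

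Over the 6 libraries of the first time course the medians ran from miR-322-3p (0.322%) through miR-497-5p (0.0296%), miR-15b-5p (0.0250%), miR-16-5p (0.0106%), miR-322-5p (0.0070%) and miR-15a-5p (0.0064%) to miR-195a-5p (0.0037%). The lowest value of miR-322-3p there (0.158%) was above the highest of every other arm, whereas all other neighbours in this order overlapped. In the second time course the order of the medians was miR-322-3p (0.0593%), miR-16-5p (0.0380%), miR-497-5p (0.0187%), miR-15a-5p (0.0117%), miR-195a-5p (0.0064%), miR-15b-5p (0.0029%) and miR-322-5p (0.0010%). All neighbours overlapped there.

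The question of the experiment was how ECS changed hippocampal miRNAs over time. The study held that these sequencing data were unlikely to measure such changes accurately, because the time courses differed as batches. It used PCR-based assays instead, in which most miRNAs were lower at late times after ECS. Levels and fold changes here are relative to the other miRNAs of a library, so a decline shared by all would not show. No family arm passed the test at any of the 5 times, against NT, in the quasi-likelihood test of edgeR, adjusted by Benjamini and Hochberg over all 469 arms tested. The background was the same, as 0% of all tested arms were called at each time, for any difference among the groups, or for the mean of the 5 times. The lowest adjusted p of a family arm in edgeR lay between 0.988 (0.5 h) and 1.00 (1 h). At an unadjusted p under 0.05 there was 1 family arm at 0.5 h (miR-15b-3p), none at the other 4 times, and 9, 2, 10, 9 and 7 arms of all 469 from 0.5 to 24 h. DESeq2 also called no family arm at any time, with or without the time course as a block. Of all 469 arms it called 1, 0, 2, 0 and 0 from 0.5 to 24 h without the block, and 2, 0, 5, 3 and 0 with it. For any difference among the groups it called 9 in either fit. Median log2 fold changes of the 11 family arms were -0.31, -0.64, -0.22, 0.90 and -0.0036 from 0.5 h to 24 h. The medians over all 469 arms were 0.15, -0.0022, 0.15, 0.012 and 0.23.

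Each library after ECS can be set against the untreated library of its own time course, and the members then differed between the 2 time courses. Every such value sets 1 mouse against a different mouse. At 6 h, none of 7 arms (the 5p arms and miR-322-3p) had the same direction in both time courses. At 0.5, 1, 3 and 24 h, 3, 2, 4 and 3 of the 7 did. These counts depend on short tags, since tags of 18 or 19 nt held 51.4% of the miRNA counts of NT-1. With tags under 20 nt left out (added after seeing the data), 2 of 7 arms had the same direction at 6 h, namely miR-15b-5p and miR-322-5p, both higher, and 5, 0, 4 and 3 did at 0.5, 1, 3 and 24 h. miR-15a-5p, encoded in Dleu2, was among the arms that split at 6 h. Its level was 0.00250% in 6h-1, 0.594 times that of NT-1, and 0.121% in 6h-2, 8.70 times that of NT-2. The fitted log2 difference at 6 h was 3.38 (SE 1.58, unadjusted edgeR p 0.0521, adjusted p 0.994). The edgeR fits of ECS against NT had no term for the time course unless a block is named. Differences between the time courses are thus part of their SEs and p-values.

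miR-15b-5p, encoded in Smc4, was at 0.508 times its own untreated level at 6 h in the first time course and at 12.02 times in the second. Without tags under 20 nt these values were 1.73 and 10.4 times, so the split of miR-15b-5p was not seen there. The partner miR-16-5p was at 0.239 and 3.20 times, and miR-195a-5p at 0.150 and 2.01 times. The library 6h-1 had the fewest miRNA counts of all (439336), and there miR-195a-5p rested on 4 counts, miR-15a-5p on 11 and miR-16-5p on 19. The library 6h-2 had the fewest accepted reads (1897490), with 1605 counts of miR-15a-5p and 1437 of miR-16-5p. Both 6 h libraries thus had the lowest miRNA counts of their time course, and the part of depth in these values was not tested.

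At 3 h, miR-15a-5p, miR-16-5p, miR-195a-5p and miR-322-5p were below their own untreated library in both time courses. The values were 0.964 and 0.332 times for miR-15a-5p, 0.479 and 0.628 times for miR-16-5p, 0.394 and 0.735 times for miR-195a-5p, and 0.244 and 0.446 times for miR-322-5p. None of these differences passed the test. Without tags under 20 nt, miR-195a-5p at 3 h was at 1.78 times NT-1 and thus no longer lower in both. Its value in NT-1 then rested on 7 counts. In the first time course miR-16-5p was then at 0.964 times and miR-322-5p at 0.936 times, both near 1. miR-15a-5p stayed lower in both, at 0.750 times NT-1 and 0.321 times NT-2. miR-322-3p was at 0.738 and 0.607 times its own untreated level at 0.5 h and at 0.732 and 0.632 times at 24 h. Between those times its course differed, with 2.38, 1.99 and 2.79 times at 1, 3 and 6 h in the first time course and 0.436, 0.392 and 0.727 times in the second. Without tags under 20 nt those of the first time course were 1.44, 1.21 and 1.73 times, and at 0.5 and 24 h they were 0.406 and 0.398 times. miR-497-5p was above NT-1 at every time in the first time course (1.47 to 3.56 times) and within 0.781 to 1.16 times of NT-2 in the second. Without tags under 20 nt it was below NT-1 at 3 h (0.939 times) and at 2.97 to 4.08 times at the other times.

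Averaged over the 5 times, the log2 fold change was 0.70 for miR-497-5p, 0.59 for miR-15a-5p, 0.46 for miR-322-3p, 0.42 for miR-16-5p, 0.16 for miR-195a-5p, -0.28 for miR-15b-5p and -0.81 for miR-322-5p. None passed the test, and among these 7 arms miR-497-5p alone kept its sign whichever library was left out (0.35 to 1.25). Without 6h-2 the values were -0.52 for miR-15a-5p, -0.55 for miR-16-5p and -0.71 for miR-195a-5p. Without NT-1 the values were -0.12, -0.14 and -0.16 for these 3 arms, 1.98 for miR-15b-5p and 1.52 for miR-322-5p. miR-195a-5p also turned without 0.5h-2 (-0.032), 3h-2 (-0.10) or 24h-2 (-0.10), and miR-322-3p turned without 3h-1 (-0.18). The lowest adjusted p of a family arm on average was 0.932. At an unadjusted p under 0.05 were miR-15a-3p (log2 fold change -1.90, SE 0.76, edgeR p 0.0275) and miR-497-3p (-3.43, SE 1.29, edgeR p 0.0202), both highest in NT-1, where they had 83 and 72 counts. All 72 counts of miR-497-3p in NT-1 were a tag from the loop side of its hairpin, described with the time courses, so its values here are those of that tag and not of the 3p product. Without a filter on low counts edgeR called miR-497-3p lower on average after ECS (-3.62, SE 1.00, adjusted p 0.0496), and 0.565% of 1062 arms were called there.

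The summed level of the family was 0.254% of miRNA counts on average in the NT libraries and 0.321% after ECS. The difference of 0.0666 percentage points, taken within time courses, was within the spread of the libraries (two-sided exact permutation test over 36 arrangements, p = 0.75, where the smallest p the design allows is 0.0278). It was 0.000992 points without NT-1, 0.0400 without 6h-1, 0.0422 without 6h-2 and 0.132 without NT-2. For the 5p arms alone it was 0.0160 points (two-sided exact permutation test, p = 0.667).

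The time courses were compared next, since each time point has 1 library of each. With the time point as a covariate, edgeR called 4 of 11 family arms between time courses, and 32.2% of all 469 arms were called in this comparison, so that the family's count is near the background. 1 family arm was higher in the second (19.8% of all arms) and 3 were lower (12.4% of all arms). Products with the same seed moved in opposite directions, as miR-16-5p was higher and miR-322-5p lower. All differences are for the second time course minus the first.

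miR-16-5p, the most abundant carrier of the seed, ranged from 0.0043% to 0.0210% with a median of 0.0106% in the first time course. In the second it ranged from 0.0204% to 0.109% with a median of 0.0380%. The ranges met only at 1 h, where the first time course was at 0.0210% and the second at 0.0204%. The log2 fold change was 2.40 (SE 0.64, edgeR adjusted p 0.0130), and the arm was called without any single library (log2 1.78 to 2.69).

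miR-322-3p ranged from 0.158% to 0.602% in the first time course and from 0.0375% to 0.0957% in the second. It was the only tested family arm whose ranges did not overlap, which 14.5% of all tested arms also showed. Its log2 fold change was -1.74 (SE 0.51, edgeR adjusted p 0.0199). The call was lost without the first 1 h library alone, where the adjusted p was 0.0698.

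The other arm of that hairpin, miR-322-5p, was also lower (log2 fold change -1.62, SE 0.58, edgeR adjusted p 0.0447), with a median of 0.0070% in the first and 0.0010% in the second time course. It was called in 3 of 12 fits that each left out 1 library, namely without 6h-1, 24h-2 or 6h-2. The call was also lost without the filter on low counts (edgeR adjusted p 0.0560), by the first 18 nt (0.0513) and without the time point as a covariate (log2 fold change -1.01, edgeR adjusted p 0.238). The third arm that was lower, miR-497-3p (log2 fold change -3.12, SE 1.02, edgeR adjusted p 0.0316), rested on 131 counts. It was called in 5 of 12 such fits, and lost without NT-1, 0.5h-1, 1h-1, 3h-1, 24h-1, 0.5h-2 or 3h-2 (highest edgeR adjusted p 0.0844). Of the 131 counts, 115 were a single 18-nt tag from the loop side of the hairpin, 18 bases upstream of the annotated 3p start. Of those 115, 72 were in NT-1.
loop-side tag of Mir497: cggcactgtggccacgtc
The 3p product proper of miR-497 thus had 16 counts in all.

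**Figure D2:**
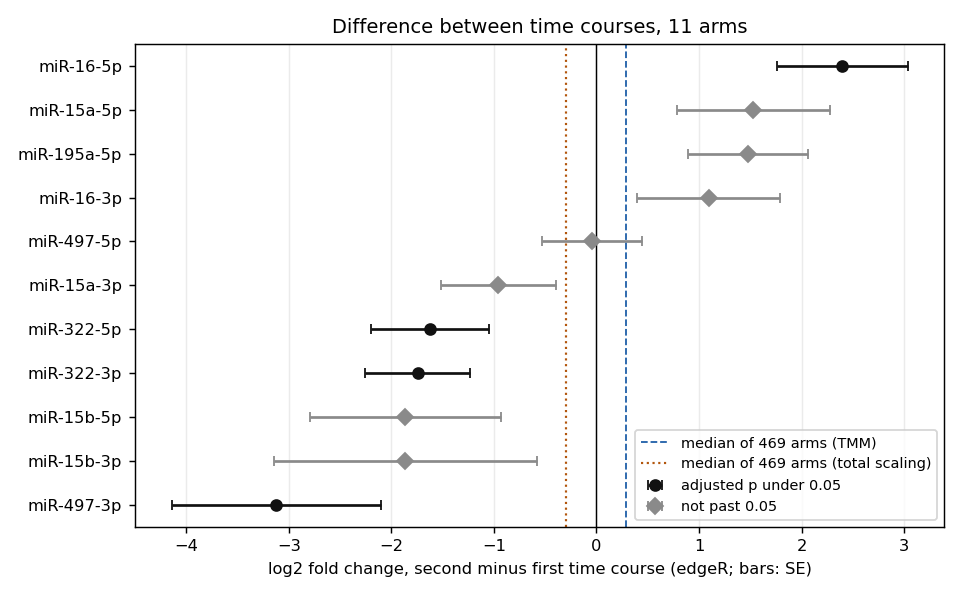
Log2 fold change (second minus first time course) with SE for the 11 tested arms from edgeR, black circles where the adjusted p was under 0.05. Vertical lines mark the median of all 469 arms under TMM scaling (0.29) and under scaling by total miRNA counts (-0.30); miR-16-5p lies above both and miR-322-3p below both.

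The remaining 7 arms did not pass the test. They were miR-15a-5p (log2 fold change 1.53, SE 0.75), miR-195a-5p (1.47, SE 0.58), miR-16-3p (1.09, SE 0.70), miR-497-5p (-0.04, SE 0.49), miR-15a-3p (-0.96, SE 0.56), miR-15b-5p (-1.86, SE 0.93) and miR-15b-3p (-1.86, SE 1.28). miR-497-5p varied little in the second time course, from 0.0151% to 0.0224%. Scaling moved all arms together, as the median over 469 arms was 0.29 under TMM and -0.30 under total miRNA counts. Under TMM 93 of the 151 called arms were higher and 58 lower, and under total scaling 49 of 162 (34.5% of arms) were higher and 113 lower. Under total scaling 5 family arms were called, with miR-15b-5p (log2 -2.46, edgeR adjusted p 0.0410) added. The directions of the 4 called arms were the same under both scalings. DESeq2 called 7 family arms, and 47.3% of all arms.

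The family's share of miRNA counts went from 0.442% ± 0.204 to 0.177% ± 0.103 between the first and second time course (mean ± SD, n = 6 each), lower at 6 of 6 time points (difference -0.265 points, two-sided exact permutation test over 64 flips, p = 0.03125, the smallest the design allows). miR-322-3p alone averaged 0.346% and 0.0605%. The 5p arms with the seed summed to 0.0893% ± 0.0303 (SD, n = 6) and 0.113% ± 0.0956 (SD, n = 6), and the second time course was higher at 3 of 6 time points (difference 0.0241 points, two-sided exact permutation test, p = 0.75). miRNA counts themselves made up 10.1% to 32.7% of the accepted reads in the first time course and 50.9% to 69.6% in the second. Per accepted read, the whole family was at 0.103% ± 0.0453 (SD, n = 6) and 0.106% ± 0.0777 (SD, n = 6), with no difference beyond the spread (0.00317 points, two-sided exact permutation test, p = 0.906). On that scale miR-322-3p was still lower in the second time course at 6 of 6 time points, with means of 0.0781% and 0.0351%. miR-16-5p, miR-15a-5p and miR-195a-5p were higher at 6 of 6.

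Marker miRNAs were set against the time courses as well, and only the vessel list had ranges that did not overlap. The means of the vessel, neuronal and blood cell lists were lower in the second time course. That of the oligodendrocyte list was higher. The summed level of 3 vessel miRNAs (miR-126a, miR-143 and miR-145a) ranged from 6.30% to 14.5% of miRNA counts in the first time course and from 0.565% to 1.65% in the second. The 6 neuronal miRNAs, miR-124a, miR-9, miR-128, miR-137, miR-138 and miR-132, summed to 14.3% to 31.2% and to 6.11% to 16.7%, so that the neuronal markers of hippocampus were abundant in every library. The 5 blood cell miRNAs summed to 0.133% to 1.15% and to 0.0373% to 0.257%. The red cell miRNA miR-451a, a small part of that sum, did not follow it. It was between 0.000468% and 0.00637% in the first time course and between 0.00227% and 0.0102% in the second. The 2 oligodendrocyte miRNAs summed to 0.273% to 1.40% and to 0.392% to 1.82%. None of the markers was at 0 over the series. Their part in the family's differences was not tested. In bulk tissue, a change in the number of cells of a type cannot be told apart from a change in RNA per cell.

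Ratios between members do not depend on the scaling of a library. The ratio of miR-15b-5p to miR-15a-5p was above 1 in 4 of 6 libraries of the first time course and below 1 in all 6 of the second. The number of miR-15b-5p counts per miR-15a-5p count was 9.13, 0.630, 3.24, 15.0, 7.82 and 0.513 in the first time course, from NT to 24 h. In the second it was 0.201, 0.207, 0.217, 0.203, 0.277 and 0.316. The second time course was steady, and all of its values were below the lowest of the first. The mean log2 ratio fell from 1.69 ± 2.07 (SD, n = 6) to -2.10 ± 0.28 (SD, n = 6), lower at 6 of 6 time points (difference -3.79, two-sided exact permutation test, p = 0.03125, adjusted to 0.0625 over 4 ratios by Benjamini and Hochberg).

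Within the Smc4 pair, miR-15b-5p per miR-16-5p count was between 0.436 and 7.05 in the first time course and between 0.0440 and 0.310 in the second. The ranges did not overlap, and the mean log2 ratio went from 0.79 ± 1.57 to -3.62 ± 1.00 (SD, n = 6 each; difference -4.41, two-sided exact permutation test, p = 0.03125, adjusted to 0.0625). Nearly all miR-16-5p counts fit both of its loci, so this ratio does not set the arms of 1 transcript against each other. Both ratios were chosen after the levels had been seen. Counting by the first 18 nt gave differences of -3.82 and -4.41, and tags of at least 20 nt gave -3.14 and -4.18. The mean differences thus stayed without the short tags, but single ratios moved. In NT-1 miR-15b-5p had 411 counts against 45 of miR-15a-5p, and with tags of at least 20 nt 41 against 31.

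Within the Dleu2 pair, miR-15a-5p per miR-16-5p count was between 0.233 and 0.995 in the first time course and between 0.217 and 1.12 in the second (log2 difference -0.62, two-sided exact permutation test, p = 0.281). Within the Mir497 and Mir195a pair, miR-195a-5p per miR-497-5p count was 0.0317 to 0.367 and 0.245 to 0.791 (log2 difference 1.72, two-sided exact permutation test, p = 0.125). These pairs overlapped between the time courses. None of the 4 ratios differed after ECS from NT beyond the spread (two-sided exact permutation test over 36 arrangements, lowest p = 0.306).

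**Figure D3:**
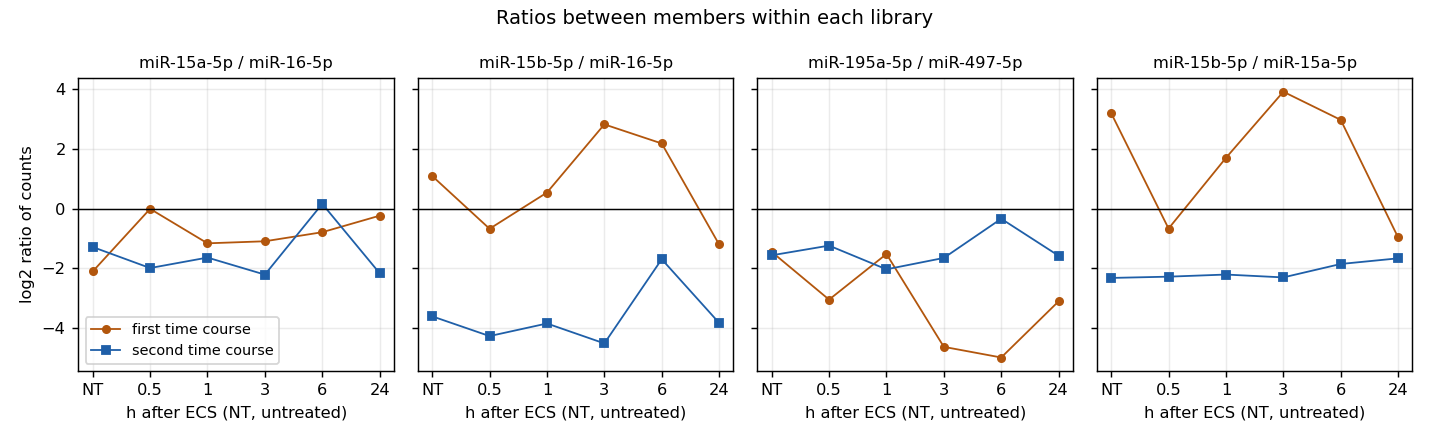
Log2 ratio of counts of pairs of members within each library, by hours after ECS. The miR-15b-5p ratios of the second time course lie below every value of the first, whereas the other ratios overlap.

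Over all libraries the 5p arm held 99.9% of miR-195a counts, 98.4% of miR-15b, 98.1% of miR-497, 94.2% of miR-15a and 92.9% of miR-16, against 2.09% of miR-322. By library the 5p share ranged from 98.5% to 100% for miR-195a, from 89.6% to 100% for miR-15b and from 71.1% to 100% for miR-497. The 71.1% of miR-497 was in NT-1, where all 72 counts on the 3p side were the loop-side tag. There 0 counts began within 3 bases of the annotated 3p start, so this value does not measure use of the 3p product. The 1 count of miR-195a-3p, also in NT-1, was not at its annotated start either. The 5p share of miR-322 was below 10% in each library, from 0.848% in 3h-1 to 9.72% in 6h-2 (Wilson 95% interval 8.05% to 11.7%). In this tissue the seed-bearing arm of miR-322 was thus the minor one in every library, unlike that of the other 5 members in the summed counts.

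The 5p share of miR-15a was 35.2% in NT-1, 52.4% in 6h-1 and 85.3% to 94.6% in the rest of the first time course. In the second it was 90.1% to 99.4%. It was higher in the second at 6 of 6 time points (means 74.0% ± 24.2 and 95.7% ± 3.02, SD, n = 6; two-sided exact permutation test, p = 0.03125, adjusted to 0.188 over 6 members). NT-1 was the only library in which miR-15a had more counts from its 3p arm (83) than from its 5p arm (45). For miR-16 the 5p share was between 65.5% and 97.0% in the first and between 81.1% and 99.3% in the second time course, which overlapped. For the other members the adjusted p was 0.281 or higher in the same exact permutation test. The lowest of these was for miR-497, whose 3p counts were mostly the loop-side tag (115 of 131).

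**Figure D4:**
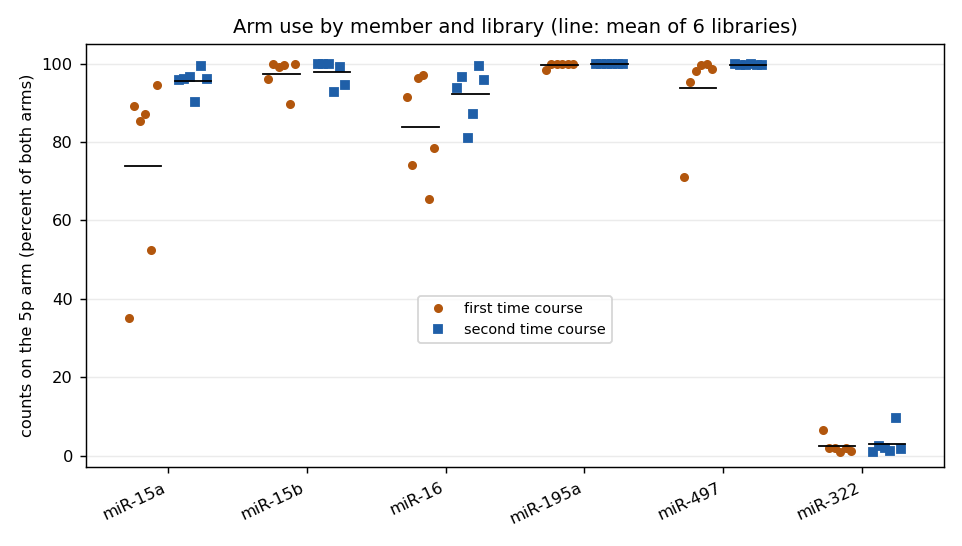
Share of a member's counts on the 5p arm in each library (points, 6 per time course) with the mean of each time course (lines). miR-322 sits between 0.848% and 9.72%, and the lowest points of miR-15a are NT-1 (35.2%) and 6h-1 (52.4%).

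Since the seed is counted from the 5′ end, the start of a tag decides which seed a product has. Starts were sharp for the 5p arms of miR-15a, miR-15b, miR-16 and miR-195a, where between 99.6% and 99.8% of the counts began at the annotated base. For miR-497-5p 95.02% did, and 4.82% began 1 base later, which gives another seed. For miR-322-5p the figure was 96.1%.

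miR-322-3p had the loosest start. Of its counts 89.8% began at the annotated base, 6.54% began 1 base earlier and 3.54% began 2 bases earlier. These forms are shown, with bases 2 to 8 of each in capitals, because each has a seed of its own.
annotated start: aAACATGAagcgctgcaaca
1 base earlier: aAAACATGaagcgctgcaaca
2 bases earlier: cAAAACATgaagcgctgcaaca
The share at the annotated start was 88.6% to 98.1% in the first time course and 79.2% to 82.9% in the second, with no overlap (means 93.6% ± 3.45 and 81.1% ± 1.48, SD, n = 6; two-sided exact permutation test, p = 0.03125, adjusted to 0.0547 over 14 tests of tag ends). The earlier starts of miR-322-3p thus made up a larger part of the arm in each library of the second time course.

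Tag length was compared next, and it depends on both ends of a tag. The value of miR-322-3p thus includes its earlier starts, and the parts of the 2 ends were not separated. All 7 arms had longer tags in the second time course, at 6 of 6 time points each (two-sided exact permutation test, p = 0.03125, adjusted to 0.0547 for each). The mean rose most for miR-195a-5p, from 20.01 nt to 21.6 nt, and least for miR-322-3p, from 20.2 nt to 20.6 nt. The libraries as a whole had this difference too, as the mean miRNA tag was 19.6 to 20.6 nt long in the first time course and 20.9 to 21.2 nt in the second. In NT-1 51.4% of miRNA counts were in tags of 18 or 19 nt, against 0.910% to 16.9% in the other libraries.

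**Figure D5:**
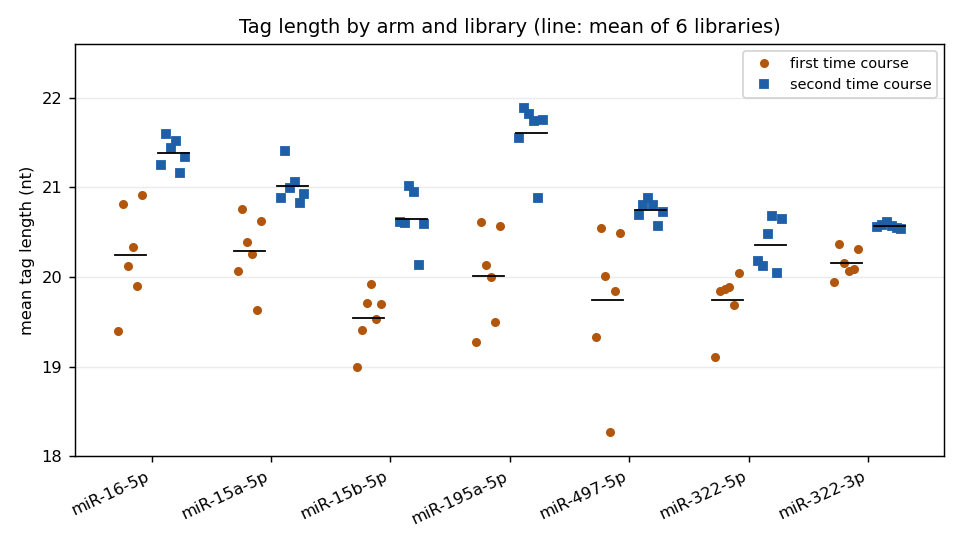
Mean tag length in nt (axis from 18 nt) of 7 arms in each library, 6 points per time course, with the mean of each time course as a line. Each arm is longer in the second time course at every time point, and the lowest point is miR-497-5p in 3h-1 (18.3 nt).

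Some high values of the first time course came from 1 tag. In 3h-1, 773 of the 886 counts of miR-497-5p were an 18-nt form that ended early, while the other 11 libraries had between 0 and 13 counts of it. The same library had 853 of its 916 miR-15b-5p counts in 1 tag of 20 nt. In NT-1, 326 of 411 miR-15b-5p counts were in the form 1 base shorter.
miR-497-5p, 18 nt: cAGCAGCAcactgtggtt
miR-497-5p, most abundant form: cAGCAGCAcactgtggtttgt
miR-15b-5p, 20 nt: tAGCAGCAcatcatggttta
miR-15b-5p, 19 nt: tAGCAGCAcatcatggttt
With tags under 20 nt left out, miR-497-5p in 3h-1 was at 0.00742%, the lowest of the 12 libraries, instead of 0.0590%, the highest. miR-15b-5p in 3h-1 stayed high at 0.0661%, and in NT-1 it went from 0.0385% to 0.00790%.

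Exact matching leaves out products with bases added after transcription. Of the counts whose first 18 nt matched, 90.8% of miR-15a-5p, 90.1% of miR-15b-5p, 88.3% of miR-497-5p, 84.9% of miR-16-5p, 84.6% of miR-322-3p and 83.2% of miR-195a-5p matched to the end. Tags with a single extra base numbered from 6.24 per 100 exact counts for miR-15b-5p to 14.3 for miR-195a-5p. The added base was A in 84.7% of those of miR-195a-5p, 76.6% of miR-16-5p and 73.0% of miR-15a-5p. For miR-15b-5p it was T in 68.6%, and for miR-322-3p A (46.2%) and T (45.1%) were near equal. The most frequent extended form of miR-16-5p (419 counts) was the 21-nt form with an added A. An added base on a trimmed end and a base change within the full length cannot be told apart there. The same holds for the most frequent extended forms of miR-15a-5p, miR-15b-5p and miR-322-3p, so the shares of A and T may include base changes.

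miR-503, the neighbour of miR-322 on chromosome X, is a near relative whose seed differs from the family's in its last base.
miR-503-5p: tAGCAGCGggaacagtactgcag
It moved against its neighbour. miR-503-5p was between 0.000586% and 0.00244% in the first time course and between 0.00159% and 0.0205% in the second (log2 fold change 2.34, SE 0.64, edgeR adjusted p 0.0142), where both arms of miR-322 were lower. The other partners on this stretch that entered the test were not called, with log2 fold changes of -0.49 for miR-351-5p, -0.26 for miR-542-3p, -1.39 for miR-450-5p and 1.24 for miR-450b-3p.

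miR-103 and miR-107 share 6 bases with the family seed at a start 1 base off, and they were far more abundant than the whole family.
most abundant tag of miR-103-3p and miR-107-3p: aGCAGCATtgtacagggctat
This tag matches both names, and its counts were split equally. miR-103-3p had a mean of 0.911% ± 0.405 in the first and 1.64% ± 0.751 in the second time course (SD, n = 6 each; log2 fold change 1.44, SE 0.45, edgeR adjusted p 0.0270). miR-107-3p averaged 0.894% ± 0.426 and 1.03% ± 0.377 (SD, n = 6 each; log2 fold change 0.85, edgeR adjusted p 0.167). None of these relatives was called at any time after ECS.

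Outside the family, the 5 arms whose levels over the 12 libraries were most like the summed main arms, after the mean of each time course was taken away, were miR-496a-3p (Pearson r 0.919), miR-126a-5p (0.868), miR-376b-3p (0.859), miR-142-5p (0.837) and miR-380-3p (0.739), of 212 arms compared. Within the family the same measure was 0.855 for miR-322-3p, 0.852 for miR-15b-5p, 0.758 for miR-322-5p, 0.439 for miR-15a-5p, 0.390 for miR-16-5p and 0.188 for miR-497-5p. The main arms are themselves part of the sum. In the first time course miR-322-3p averaged 0.346% of miRNA counts and the whole family 0.442%. In the second these means were 0.0605% and 0.177%, so miR-322-3p was a smaller part of the sum there. miR-195a-5p had under 10 counts in 6h-1 and was not among the arms compared. These values describe 12 libraries that share their total as the denominator.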

How the data were processed

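Small RNA from 12 hippocampi was sequenced, and tags of 18 to 34 nt could be matched here. Per the labels and the study's methods, the authors size-fractionated total RNA on a gel, cloned it with an Illumina DGE small RNA kit, removed reads without the 3′ adapter or with short inserts, and deposited raw counts of accepted reads for each distinct tag, before alignment and without normalization. Accepted reads ranged from 1897490 to 7657222 per library. Versions of the authors' tools are not given in the sources used here.

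Every tag was compared with the GENCODE M21 miRNA hairpins (GRCm38) of 1087 names. A tag within a hairpin was counted, a tag of several names was split equally (0.899% to 4.83% of miRNA counts of a library), and the arm was set by the midpoint of the hairpin. Arms that reached 10 counts in 2 or more libraries (469) were tested with edgeR 4.0.16 (TMM, quasi-likelihood, R 4.3.3) over all 12 libraries, without a block for ECS against NT and with the time point as covariate between time courses. The threshold was an adjusted p of 0.05. DESeq2 1.42.0, other scalings, filters and counting rules, and each library left out were alternatives. The fits were tested on simulated counts. The groups have 2 mice each, so the spread is estimated mainly across groups. All arms of the members were named, whatever their values, with the relatives and markers listed in the report. The members and lists were chosen with earlier results of these data known.

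The replicate number marks a time course, which the study describes as a batch. Libraries of the same number deviated together from their group means (mean r 0.519, range 0.308 to 0.786 over 15 pairs of groups). Replicate numbers are those of the sample labels. The study's composition table gives the untreated pair in the opposite order, and fits without NT-1 or NT-2 are among the alternatives. Biases of ligation and amplification between sequences were not tested. Intervals are Wilson 95% intervals.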

Additional observations from a re-analysis of the deposited data

Results flagged for a closer look

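In 23 sets of 6 libraries (an arm in 1 time course), 7 held a library far from the other 5 by Dixon's criterion, where chance alone would give about 1 in 20, or 1.15, and the sets share their libraries. Of the 3 in the second time course, all were 6h-2. There miR-15a-5p was at 0.121% (others 0.00463% to 0.0170%), miR-15b-5p at 0.0337% (others 0.000940% to 0.00352%) and miR-322-5p at 0.00749% (others 0.000458% to 0.00146%). NT-1 stood apart for miR-15a-3p, at 0.00777% (others 0.000496% to 0.00228%), for miR-497-3p, at 0.00674% (others 0% to 0.00154%), and for miR-195a-3p, at 9.37e-05%, which is 1 count. 3h-1 stood apart for miR-497-5p, at 0.0590% (others 0.0166% to 0.0315%), where 773 of 886 counts were 1 tag of 18 nt.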

How the results depend on the processing

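The count of 4 family arms between time courses was 7 with DESeq2 and ranged from 1 to 5 when 1 library was left out. It was 2 without NT-1, 0.5h-1, 3h-1, 24h-1, 0.5h-2 or 3h-2, 1 without 1h-1, and 4 without NT-1 and 6h-2 together. The share of all tested arms called in these leave-out fits is not given here. The counts therefore cannot tell a change particular to the family from a change in calls over all arms. The count of 0 on average after ECS was 1 without a filter on low counts. With a replicate block for the time course, the counts of family arms called after ECS were 0 at each time, at any time and on average, and the block changed no other call. The lower family share (-0.265 points) was 0.00317 as percent of accepted reads and 0.0241 for the 5p arms alone, an alternative added after seeing the data; without single libraries it ranged from -0.308 to -0.214 with an exact permutation p of 0.0625, the smallest that 5 time points allow. The difference in 5p share of miR-15b (0.368 points) was -0.154 by the first 18 nt and -2.32 with tags of at least 20 nt. With such tags the share at the annotated start differed by -0.199 points for miR-16-5p and by 8.52 for miR-497-5p (exact permutation p 0.03125), and lengths differed by 0.990 nt for miR-195a-5p and 0.377 nt for miR-497-5p (exact permutation p 0.0625 each). The causes of these changes were not tested.

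Signs of small log2 fold changes turned. Between time courses miR-497-5p ranged from -0.26 to 0.11 over the libraries left out. For the average after ECS, the ranges were -0.52 to 2.29 for miR-15a-5p, -1.55 to 1.98 for miR-15b-5p, -0.55 to 1.46 for miR-16-5p, -0.71 to 0.64 for miR-195a-5p, -0.18 to 0.75 for miR-322-3p and -1.66 to 1.52 for miR-322-5p. Without NT-1 and 6h-2 together (added after seeing the data) they were -1.27 for miR-15a-5p, 1.73 for miR-15b-5p, -1.10 for miR-16-5p, -0.96 for miR-195a-5p and 1.47 for miR-322-5p. miR-15b-5p was 0.18 with the block and 0.20 with DESeq2 and the block, and miR-195a-5p was -0.18 under total scaling, -0.037 without a filter and -0.011 with DESeq2 and the block.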

Other observations

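A longer form of miR-15a-5p, which runs 2 bases past the annotated 3′ end, had 94 of 663 counts of that arm in 0.5h-2, 9 in 3h-2, 1 in 1h-2 and 0 in the other 9 libraries.
miR-15a-5p, 24 nt: tAGCAGCAcataatggtttgtgga
In the same library, 399 of the 695 counts of the 23-nt form of miR-16-5p were found, against 0 to 92 in each of the other libraries.
miR-16-5p, 23 nt: tAGCAGCAcgtaaatattggcgt
The mean tag lengths of miR-15a-5p (21.4 nt) and miR-16-5p (21.6 nt) in 0.5h-2 were the highest of the 12 libraries. This was seen in 1 library, was chosen after its values were seen, and was not tested.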
